A study of Mus musculus with 31 samples.

Results

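Mouse embryonic fibroblasts (MEFs) given retroviruses that encode the 4 factors c-Myc, Klf4, Oct4 and Sox2 (4F) were compared on day 5 after infection with MEFs that carried a GFP retrovirus. The comparison holds 4 of the 31 arrays of the series, chosen by their titles: 2 arrays of 4F cells and 2 of GFP cells, with a replicate 1 and a replicate 2 in each arm. The question was which genes differ between the factors and the control virus at this early time of reprogramming. Beside them, 4F and GFP cells on days 1, 3 and 8 (2 arrays each), 1 array of cells infected for Oct4, Sox2 and Klf4 without c-Myc (3F) on day 5, and uninfected MEFs of day 0 (2 arrays) were used as context. All cells were kept in DMEM with foetal bovine serum, and the mouse strain, the promoter of the viral vectors and the share of infected cells are not stated in the labels. Labelling started from 120 ng of RNA for replicate 1 of each group and from 300 ng for all other arrays, so the arrays of 1 number were treated as a pair. Titles call the replicates biological, but nothing says that they came from separate cultures, and the p-values then measure only the spread between these arrays. The source text of the 3F array speaks of 4 factors while naming Oct4, Sox2 and Klf4, and it was read as 3F, as its title says.

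Reprogramming by these transcription factors turns fibroblasts into pluripotent cells over a course of weeks, and few of the infected cells finish it. In the textbook account, fibroblast genes are lost and cell division rises first, epithelial genes follow, and the pluripotency network of the embryonic stem cell is switched on last. Oct4 (gene Pou5f1), Sox2 and Klf4 bind enhancers of pluripotency genes and, early on, many other sites, and c-Myc drives growth, ribosome production and the cell cycle. These are pools of cells: fewer cells of a type and less RNA per cell cannot be told apart in them.

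The table holds log2 signals, 1 row per probe set, and 21789 of 28853 rows carry a single gene symbol, for 19938 genes. A gene with several rows is given by the row with the highest mean signal. Array medians lay between 6.04 and 6.17, and the replicates of each day 5 arm correlated across rows at r = 0.9906 in 4F and in GFP. Fibroblast identity was checked with 10 markers, whose mean signal was 9.55 and 9.84 in 4F, against 11.57 and 11.54 in GFP: 9 of the 10 were lower in 4F, and Vim, the mesenchymal intermediate filament, was not called. Mean signals of the marker lists of other cell types stayed near or below the array medians in both arms: keratinocyte (5.52 and 5.58 in 4F, 5.40 and 5.44 in GFP), macrophage (5.41 and 5.58 in 4F, 5.67 and 5.67 in GFP), endothelial (5.82 and 5.89 in 4F, 5.85 and 5.86 in GFP), germ cell (5.00 and 5.04 in 4F, 5.01 and 4.98 in GFP) and adipocyte (5.52 and 5.57 in 4F, 6.07 and 6.02 in GFP). Skeletal muscle markers averaged 6.06 and 6.07 in 4F and 6.19 and 6.30 in GFP, and cartilage and bone markers 6.19 and 6.27 in 4F and 6.55 and 6.33 in GFP. Among the defining markers, 3 were not called and stood low in all 4 arrays: Ptprc of blood cells (4.94 and 4.96 in 4F, 4.94 and 5.10 in GFP), Pecam1 of endothelium (5.20 and 5.20 in 4F, 5.42 and 5.34 in GFP) and Krt5 of keratinocytes (5.33 and 5.84 in 4F, 5.34 and 5.59 in GFP). Single markers did move: Tek, an endothelial receptor, was higher (2.30), as were Laptm5, a macrophage lysosomal protein (1.73), and Alpl, alkaline phosphatase, which is also an early mark of reprogramming (1.5), while Lpl, the lipoprotein lipase of adipocytes (-2.70), and Flt1, an endothelial VEGF receptor (-1.52), were lower. Also lower were Fabp4, the fatty acid binding protein of adipocytes (-0.88), Sox9, a cartilage transcription factor (-1.15), and all 3 called members of the 10 muscle markers, Acta1, skeletal actin (-0.87), Des, desmin (-0.78), and Tnnt3, a troponin (-0.46). Krtdap, the 1 called gene of the 12 keratinocyte markers, was higher (1.66-fold), and Emcn, of the endothelial list, was lower (1.51-fold). Over all genes, 28.2% were called, 14.2% higher and 14.0% lower. Counting both directions, the calls in each of these lists of other cell types were near or below that 28.2%.

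The delivered factors came first as a check of the labels. Pou5f1 had log2 signals of 7.28 and 7.84 in 4F cells, against 5.37 and 5.49 in GFP cells, a difference of 2.13 ± 0.38 (SE, limma adjusted p = 0.00068). The arms did not overlap, and the day 0 arrays, at 5.66 and 5.23, stood with GFP. Sox2 had 5.78 and 6.46 in 4F cells, against 5.41 and 5.36 in GFP cells, with a difference of 0.74 ± 0.26 (SE, limma adjusted p = 0.049), a call that was lost when any 1 of the 4 arrays was left out. Its day 0 arrays, at 5.66 and 5.98, stood above both GFP arrays, and 4F replicate 1 lay between them. Against day 0, Sox2 was not called in 4F (0.30, limma adjusted p = 0.54) or in GFP (-0.43, limma adjusted p = 0.32). Klf4, at 7.20 and 7.25 in 4F cells, against 7.68 and 8.10 in GFP cells, and Myc, at 6.37 and 7.10 in 4F cells, against 7.65 and 7.76 in GFP cells, had differences of -0.66 ± 0.26 (SE, limma adjusted p = 0.074) and -0.97 ± 0.48 (SE, limma adjusted p = 0.16), so neither was called, and both 4F arrays lay below both GFP arrays for each of them. In a fit of the 4 day 5 arrays alone both were called lower by limma, and Klf4 also when rows with a mean signal under 6 were left out. Myc stood at 9.70 and 9.58 on day 0, above every day 5 array of either arm, and at 8.26 in the 3F array, which had no c-Myc virus per its title. The labels and the annotation do not say where in each transcript the probes lie, so viral and endogenous transcripts cannot be told apart, and a row outside the delivered sequence would not see the virus. For Klf4 and Myc the rows therefore give no check of the labels.

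On day 5 the 4F cells differed from the GFP cells over a broad part of the transcriptome. Of the 19938 genes, 5631 (28.2%) passed limma with a Benjamini-Hochberg adjusted p under 0.05: 2835 were higher in 4F (14.2% of all genes) and 2796 lower (14.0%). These percentages are the background for the counts of 4F against GFP in the marker lists above and in every list below. A gene that passed is called higher or lower. Most differences were modest, with a median of 0.63 on the log2 scale among the genes called higher and -0.70 among those called lower. The larger ones leaned downward: 70 called genes were higher by at least 2 on the log2 scale, a 4-fold difference, and 192 were lower by as much. In rows, 6269 of 21789 were called (28.8%), 51.6% of them higher, and of the 1570 called rows with a difference of at least 1, 40.7% were higher. Each of the 5631 called genes had the same sign in both pairs, and in 5589 the 2 arms did not overlap, which the test itself favours. With 2 arrays per arm such separation is common. The genes named below were mostly picked for large called differences, so separation of their arms adds no support. Of all 19938 genes, called or not, both 4F arrays lay above both GFP arrays in 5614 and below both in 6020. The number of called rows fell to 4174 without 4F replicate 1, and to between 4622 and 4939 without any other array.

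**Figure D1:**
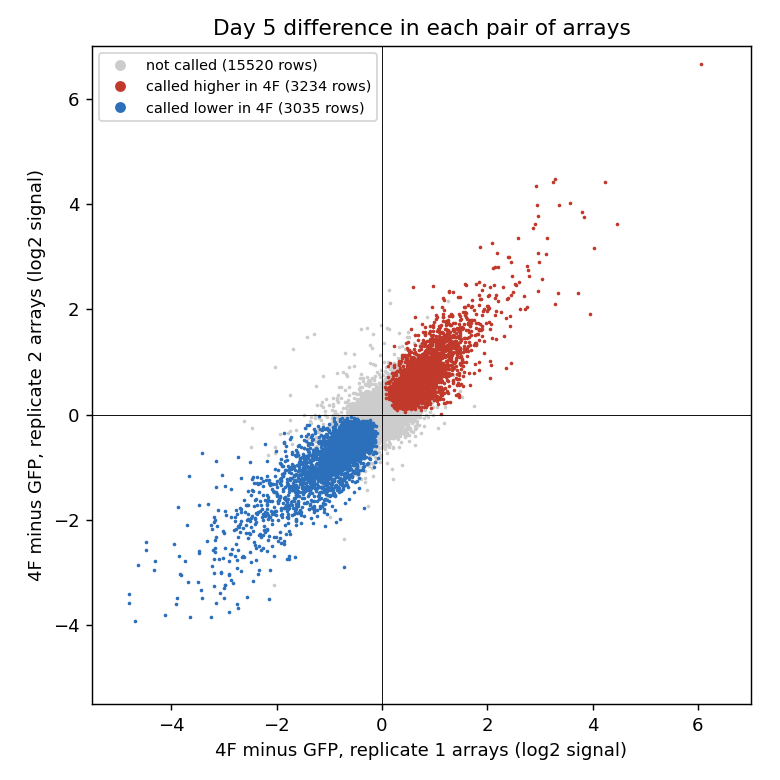
Each point is 1 row of the table, placed by its difference of 4F minus GFP on day 5 in log2 signal, with the replicate 1 arrays on the x axis and the replicate 2 arrays on the y axis. The 3234 rows called higher in 4F (red) and the 3035 called lower (blue) lie along the diagonal, and 1 point, Akr1c18, stands beyond 6 on both axes.

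The 15 genes with the largest positive differences had GFP signals of at most 7.34 in either array and spanned enzymes, secreted proteins and neural genes. Akr1c18, an enzyme that inactivates progesterone, had 11.27 and 12.16 in 4F cells, against 5.22 and 5.51 in GFP cells, a difference of 6.35 ± 0.31 (SE, limma adjusted p = 2.7e-08). Its signal in both 4F arrays was far above every GFP and day 0 array. Next were Necab1, a neuronal calcium-binding protein (9.72 and 9.62 in 4F, 5.48 and 5.19 in GFP), with 4.33 ± 0.20 (SE, limma adjusted p = 1.3e-08), and Bex1, a brain-expressed X-linked adaptor (9.38 and 8.46 in 4F, 4.92 and 4.85 in GFP), with 4.04 ± 0.31 (SE, limma adjusted p = 7.4e-07). Sostdc1, a secreted antagonist of BMP and Wnt signals, varied more between the 4F arrays (8.70 and 10.28 in 4F, 5.42 and 5.81 in GFP), with 3.88 ± 0.51 (SE, limma adjusted p = 5.6e-05). Fmo1, a flavin-containing monooxygenase (3.84), Dpp4, the surface peptidase CD26 (3.82), Sbspon, a secreted matrix protein (3.80), and Tmem229b (3.68) followed. Neural genes among the 15 were Elavl2, an RNA-binding protein of neurons (9.41 and 9.31 in 4F, 5.57 and 5.57 in GFP), Penk, the precursor of enkephalins (10.27 and 10.76 in 4F, 7.34 and 6.43 in GFP), and Kcnip4, a partner of potassium channels (8.42 and 8.97 in 4F, 5.46 and 5.19 in GFP). Hbb-y, the embryonic beta-like globin, had 8.82 and 8.42 in 4F cells, against 4.79 and 5.25 in GFP cells, a difference of 3.60 ± 0.24 (SE, limma adjusted p = 2.6e-07), and it was the only called gene among 6 red blood cell markers, whose mean signal was 5.92 and 5.88 in 4F and 5.26 and 5.34 in GFP. The remaining 3 were Nt5e, the surface nucleotidase CD73 (3.46), Foxd1, a forkhead factor of stromal progenitors (3.26), and St3gal6, a sialyltransferase (3.25). In each of these 15 genes both 4F arrays were above both GFP arrays and both day 0 arrays, and the 3F array was also above all of those.

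Most of the 15 largest negative differences were in secreted products of fibroblasts. Aspn, asporin, a small leucine-rich proteoglycan, had 6.43 and 7.76 in 4F cells, against 11.12 and 11.68 in GFP cells, a difference of -4.31 ± 0.49 (SE, limma adjusted p = 1.6e-05). Cxcl5, a neutrophil chemokine, had 7.09 and 8.21 in 4F cells, against 11.90 and 11.79 in GFP cells, a difference of -4.19 ± 0.41 (SE, limma adjusted p = 5.3e-06). Mmp13, a collagenase, had 6.26 and 6.37 in 4F cells, against 11.06 and 9.78 in GFP cells, a difference of -4.10 ± 0.52 (SE, limma adjusted p = 4.1e-05). In all 3 the 4F arrays were lower than the GFP arrays and than the uninfected cells, while GFP cells were above the uninfected cells. Against day 0, Cxcl5 was called lower in 4F (-1.48, limma adjusted p = 0.02). Aspn (-1.20, limma adjusted p = 0.11) and Mmp13 (-0.86, limma adjusted p = 0.32) were not called in 4F against day 0. Tnmd, the tendon glycoprotein tenomodulin (-3.96), Plat, tissue plasminogen activator (-3.75), Gas6, the ligand of the TAM receptor kinases (-3.75), Aebp1, a collagen-binding matrix protein (-3.69), and Fgf7, a fibroblast growth factor that acts on epithelia (-3.65), were among them. So were C1qtnf3, a secreted C1q-domain protein (-3.54), Mmp3, stromelysin (-3.53), Agtr2, an angiotensin receptor (-3.46), and Postn, periostin (-3.45). The inflammatory products Saa3 (-3.74), Ccl11 (-3.54) and Cxcl12 (-3.44) completed the 15.

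**Figure D2:**
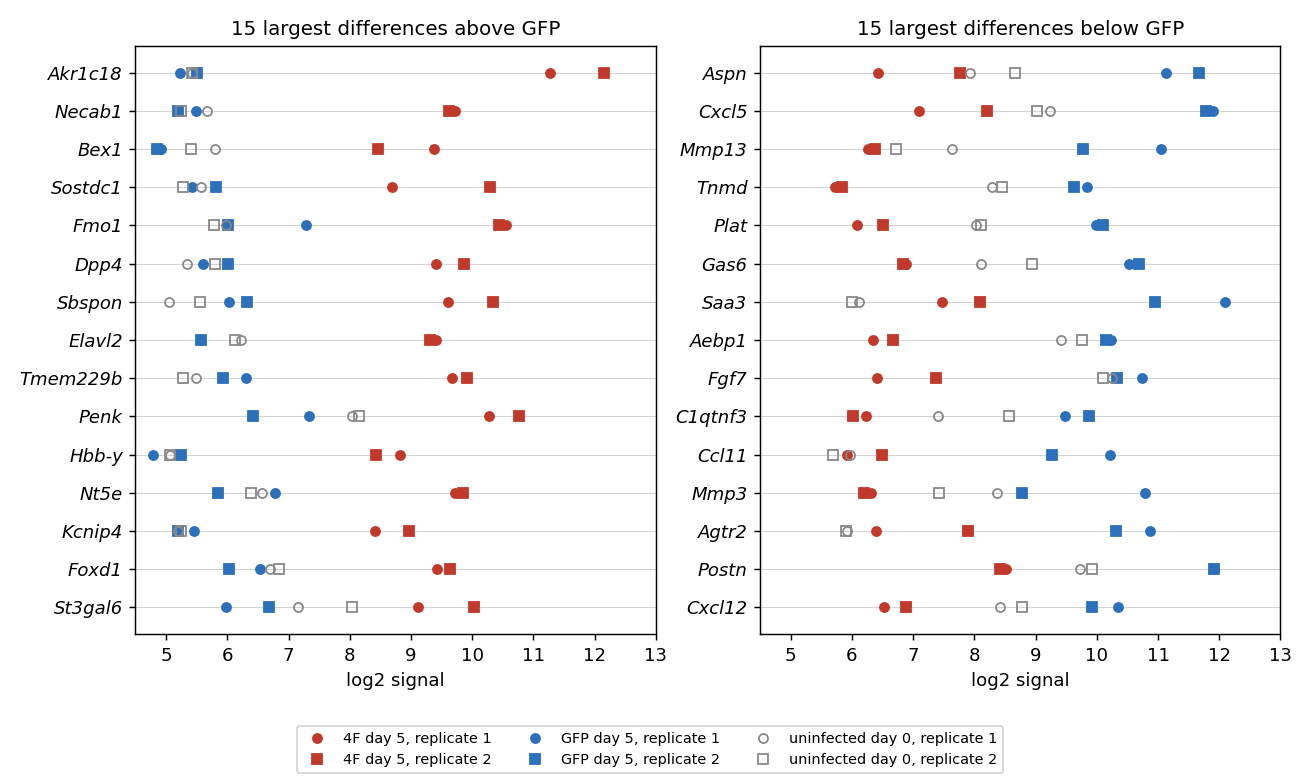
Log2 signal (x axis) of the 15 genes with the largest positive (left) and negative (right) difference of 4F minus GFP on day 5, with 4F in red, GFP in blue and uninfected day 0 as open grey symbols, circles for replicate 1 and squares for replicate 2. On the left every red symbol lies right of the blue and grey ones, and on the right every red symbol lies left of the blue ones, and in Saa3 and Agtr2 both grey symbols lie left of both red ones.

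Collagens, the fibrous scaffold of connective tissue, were lower in 4F in 15 of 18 measured genes and higher in 0, with a list median of -1.46 beside -0.01 for all genes. The largest difference was in Col12a1, a fibril-associated collagen, with 8.54 and 8.70 in 4F cells, against 11.61 and 12.09 in GFP cells, a difference of -3.23 ± 0.30 (SE, limma adjusted p = 3.4e-06). Col5a2 (8.86 and 8.82 in 4F, 11.36 and 11.63 in GFP) and Col5a1 (7.78 and 8.02 in 4F, 10.28 and 10.62 in GFP), the 2 main chains of the collagen that starts fibrils, differed by -2.65 and -2.55. Col8a1, a short-chain collagen, differed by -2.38 (7.98 and 8.67 in 4F, 10.67 and 10.75 in GFP). No 4F array reached a GFP array in any of these 4.

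Proteoglycans and glycoproteins of the matrix had the lowest median of all lists, -2.27, with 22 of 27 lower and 0 higher. Beside Aspn and Postn, Tnc, tenascin-C, had 8.14 and 7.97 in 4F cells, against 11.57 and 11.31 in GFP cells, a difference of -3.39 ± 0.35 (SE, limma adjusted p = 8.8e-06). Bgn, biglycan, had 9.55 and 9.12 in 4F cells, against 12.71 and 12.69 in GFP cells, a difference of -3.37 ± 0.28 (SE, limma adjusted p = 1.4e-06). Fn1, fibronectin, the glycoprotein that links integrins to the matrix, had 10.30 and 10.34 in 4F cells, against 12.35 and 12.66 in GFP cells, a difference of -2.19 ± 0.16 (SE, limma adjusted p = 4.7e-07). All of these separated the arms without overlap, and Fn1 kept a high signal in 4F cells. Enzymes that crosslink and cut the matrix followed, with 22 of 23 lower, 0 higher and a median of -1.75. Lox, the lysyl oxidase that crosslinks collagen and elastin (9.22 and 9.36 in 4F, 12.21 and 12.66 in GFP), differed by -3.14 ± 0.35 (SE, limma adjusted p = 1.3e-05), and Adamts5, an aggrecanase (7.04 and 8.02 in 4F, 10.13 and 10.77 in GFP), by -2.92 ± 0.49 (SE, limma adjusted p = 0.00038).

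Transcription factors of mesenchyme were lower in 14 of 27 and higher in 1, with a median of -0.32. Snai2, a repressor of epithelial genes, had 6.68 and 6.82 in 4F cells, against 8.83 and 8.76 in GFP cells, a difference of -2.05 ± 0.36 (SE, limma adjusted p = 0.00065). Twist2, a basic helix-loop-helix factor of mesenchyme (7.63 and 7.51 in 4F, 9.59 and 9.12 in GFP), and Osr1, a zinc finger factor of connective tissue (6.46 and 7.15 in 4F, 8.44 and 8.53 in GFP), differed by -1.78 and -1.68. Meox2, a homeobox factor of mesoderm, was the member called higher: it had 9.64 and 9.87 in 4F cells, against 7.78 and 6.69 in GFP cells, a difference of 2.52 ± 0.37 (SE, limma adjusted p = 0.00015). Among surface proteins and growth factor receptors of fibroblasts, 17 of 22 were lower and 2 higher, with a median of -1.14. Pdgfra, the receptor for platelet-derived growth factor on mesenchymal cells (7.74 and 8.92 in 4F, 11.45 and 11.01 in GFP), differed by -2.90 ± 0.52 (SE, limma adjusted p = 0.00066), and its partner Pdgfrb by -2.47 ± 0.30 (SE, limma adjusted p = 3e-05). Thy1, whose loss marks fibroblasts on the way to reprogramming, had 7.32 and 7.47 in 4F cells, against 10.05 and 10.05 in GFP cells, a difference of -2.65 ± 0.20 (SE, limma adjusted p = 5.2e-07). Itga11, a collagen-binding integrin (-2.74), was also lower. Nt5e, described above, was higher, and so was Met, the receptor for hepatocyte growth factor, whose call was lost without either 4F array or GFP replicate 2.

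Genes of the contractile apparatus, many of them targets of serum response factor, were lower in 17 of 24 and higher in 0, with a median of -1.59. Tagln, transgelin, had 8.59 and 8.12 in 4F cells, against 11.32 and 11.80 in GFP cells, a difference of -3.21 ± 0.63 (SE, limma adjusted p = 0.0014). Cnn1, calponin (5.44 and 5.95 in 4F, 7.77 and 8.90 in GFP), and Cald1, caldesmon (9.0 and 8.95 in 4F, 10.96 and 11.35 in GFP), differed by -2.64 and -2.18, and Acta2, smooth muscle actin (10.90 and 11.45 in 4F, 12.58 and 13.04 in GFP), by -1.63 ± 0.31 (SE, limma adjusted p = 0.0011). Myl9, a myosin light chain, had 7.97 and 7.72 in 4F cells, against 10.31 and 10.76 in GFP cells, a difference of -2.69 ± 0.51 (SE, limma adjusted p = 0.001). Each of these 5 was lower in both 4F arrays than in both GFP arrays, although Acta2 kept a high signal. The CArG box is the element that serum response factor binds, and its letters were in 5 of 21 promoters of the list (23.8%), against 222 of 15614 promoters of all genes (1.42%), in windows of 300 bases on both strands. Among the promoters of all genes called lower they were in 1.71%, and among those called higher in 0.948%. The promoter of Myl9 is shown as one that holds it (RefSeq, GRCm38.p6, chr2:156775214-156775513, plus strand, from 250 bases before the gene start to 50 after), with the motif, which lies before the start, in capitals:
Myl9: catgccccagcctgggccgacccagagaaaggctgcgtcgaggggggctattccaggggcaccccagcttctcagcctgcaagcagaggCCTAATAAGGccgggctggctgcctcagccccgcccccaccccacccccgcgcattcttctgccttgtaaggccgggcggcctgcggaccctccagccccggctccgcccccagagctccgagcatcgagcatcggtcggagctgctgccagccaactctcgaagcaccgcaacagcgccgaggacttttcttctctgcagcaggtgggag

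TGF-beta, the growth factor that upholds the mesenchymal state, had 14 of 21 ligands, receptors and targets lower and 0 higher, with a median of -1.0. Of the ligands, Tgfb1 had 6.63 and 6.61 in 4F cells, against 8.02 and 7.86 in GFP cells, a difference of -1.32 ± 0.15 (SE, limma adjusted p = 1.8e-05), and Tgfb3 7.23 and 6.89 in 4F cells, against 9.35 and 9.85 in GFP cells, a difference of -2.54 ± 0.34 (SE, limma adjusted p = 6.3e-05). Tgfbr3, the coreceptor betaglycan (6.91 and 7.42 in 4F, 10.13 and 9.60 in GFP), differed by -2.70, Ltbp2, a matrix protein of the family that binds latent TGF-beta (6.34 and 6.37 in 4F, 9.23 and 9.15 in GFP), by -2.84, and Pmepa1, a feedback target (7.56 and 7.79 in 4F, 9.74 and 10.39 in GFP), by -2.39. Signals of these named genes were below GFP in both pairs, while the highest difference in the list was 0.21. Insulin-like growth factors and other growth factors showed 16 of 23 lower, 0 higher and a median of -1.28. Igf2, the growth factor of the embryo, had 8.42 and 8.60 in 4F cells, against 12.09 and 11.78 in GFP cells, a difference of -3.43 ± 0.25 (SE, limma adjusted p = 4.9e-07), and Igfbp7, a secreted binding protein (8.72 and 8.61 in 4F, 11.77 and 11.60 in GFP), differed by -3.02 ± 0.29 (SE, limma adjusted p = 4.5e-06). Neither overlapped between the arms.

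Chemokines, cytokines and acute phase proteins were lower in 11 of 19 and higher in 0, with a median of -2.03. Saa3, an acute phase apolipoprotein, had 7.47 and 8.09 in 4F cells, against 12.10 and 10.95 in GFP cells, a difference of -3.74 ± 0.52 (SE, limma adjusted p = 8.5e-05). Cxcl12, the ligand of Cxcr4 (6.53 and 6.88 in 4F, 10.35 and 9.93 in GFP), and Ccl11, the eosinophil chemokine eotaxin (5.92 and 6.49 in 4F, 10.22 and 9.26 in GFP), differed by -3.44 ± 0.34 (SE, limma adjusted p = 5.3e-06) and -3.54 ± 0.35 (SE, limma adjusted p = 6.1e-06). Against day 0, Saa3 stood at 1.73 in 4F and 5.47 in GFP, Ccl11 at 0.37 in 4F and 3.91 in GFP, and Cxcl12 at -1.89 in 4F and 1.54 in GFP. The macrophage markers Lyz2 and Cd53 were lower in 4F as well (-1.56 and -1.33, with Lyz2 not called without 4F replicate 1 or GFP replicate 2), while Laptm5 was higher (1.73) and Ptprc was not called: of the 12 macrophage markers, 1 was higher and 2 lower. The part of other cell types in these differences was not tested. Complement genes were called lower in 3 of 12 and had a median of -0.12: they were C1qtnf3, which shares the C1q domain but is no complement component, C2, a component of the classical pathway (-1.06 ± 0.18 SE, limma adjusted p = 0.00036), and C1s1, a protease of the same pathway (-1.35 ± 0.47 SE, limma adjusted p = 0.045), which lost its call without 4F replicate 1, 4F replicate 2 or GFP replicate 1.

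Interferon-stimulated genes, the antiviral response, differed between the pairs. Only 1 of 22 was called higher and 1 lower: Cmpk2, a mitochondrial nucleotide kinase (5.80 and 6.15 in 4F, 5.21 and 5.12 in GFP), and Ifit2, an RNA-binding antiviral protein (6.05 and 6.17 in 4F, 7.0 and 6.62 in GFP), both of which lost the call when some arrays were left out (without 4F replicate 2, GFP replicate 1 or GFP replicate 2 for Cmpk2, without GFP replicate 1 for Ifit2). The list median was -0.90 in the replicate 1 pair and 0.23 in the replicate 2 pair. Mean signals of the list were 6.03 and 6.99 in 4F, against 6.87 and 6.76 in GFP, so 4F replicate 1 stood below the other 3 arrays.

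The genes of DNA replication were higher in 4F than in GFP nearly throughout: 34 of 35 were called higher and 0 lower, with a median of 1.24. Mcm5 and Mcm6, subunits of the helicase that opens the origins, had 9.48 and 9.19 in 4F cells, against 8.15 and 7.32 in GFP cells (Mcm5), and 10.20 and 9.90 in 4F cells, against 8.93 and 8.19 in GFP cells (Mcm6), with differences of 1.60 ± 0.18 (SE, limma adjusted p = 1.5e-05) and 1.5 ± 0.16 (SE, limma adjusted p = 1.1e-05). Pcna, the sliding clamp of the polymerases (11.16 and 10.94 in 4F, 9.70 and 9.36 in GFP), and Rfc4, a subunit of its loader (9.55 and 9.55 in 4F, 8.29 and 7.80 in GFP), differed by 1.52 and 1.51. No GFP array reached a 4F array for these 4 genes. Genes of mitosis were higher in 22 of 29 and lower in 0, with a median of 1.07, a count that dropped to 12 without 4F replicate 1 and to 10 without GFP replicate 2. Ccna2, the cyclin of S phase and mitotic entry, had 10.44 and 10.20 in 4F cells, against 8.97 and 8.48 in GFP cells, a difference of 1.59 ± 0.30 (SE, limma adjusted p = 0.00097). Spc24, a kinetochore protein (1.57), Nusap1, a spindle protein (1.47), and Birc5, survivin (1.39), were higher too. Regulators of entry into the cycle went both ways, with 9 of 26 higher and 6 lower (3 lower without GFP replicate 2). Rb1, the retinoblastoma protein that holds cells in G1, had 8.94 and 9.19 in 4F cells, against 7.10 and 7.12 in GFP cells, a difference of 1.95 ± 0.12 (SE, limma adjusted p = 1.4e-07). Ccne2, a cyclin of S phase entry, was higher (1.33 ± 0.27 SE, limma adjusted p = 0.0018), while Cdkn2b, the inhibitor p15, was lower, at 7.44 and 7.84 in 4F cells, against 9.23 and 9.60 in GFP cells, a difference of -1.77 ± 0.13 (SE, limma adjusted p = 4.2e-07). Gadd45a, a growth arrest gene, differed by -1.31 ± 0.36 (SE, limma adjusted p = 0.012) and was not called without 4F replicate 1 or GFP replicate 2.

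The CCAAT box is common in promoters of cell cycle genes. Searched on both strands as CCAAT, it was in 16 of 22 promoters of the mitosis list (72.7%) and 18 of 30 of the replication list (60.0%), against 5969 of 15614 of all genes (38.2%) and 41.0% of genes called higher. Lists that were lower in 4F held it often too: 12 of 21 promoters of the contractile list (57.1%), 9 of 17 of the matrix proteoglycans (52.9%) and 7 of 14 of the collagens. The promoter of Cdc20, an activator of the anaphase-promoting complex, is shown for the mitosis list (GRCm38.p6, chr4:118437294-118437593, minus strand), with its 2 copies of the motif, both of which begin before the gene start, in capitals:
Cdc20: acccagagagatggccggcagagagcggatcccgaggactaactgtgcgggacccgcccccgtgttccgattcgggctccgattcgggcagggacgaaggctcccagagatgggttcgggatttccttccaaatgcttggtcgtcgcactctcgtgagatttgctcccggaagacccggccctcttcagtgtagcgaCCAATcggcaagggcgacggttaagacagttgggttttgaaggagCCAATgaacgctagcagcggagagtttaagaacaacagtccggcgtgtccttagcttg

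Genes of the nucleolus, where ribosomes are made, were higher in 31 of 33 and lower in 0, with a median of 0.93. Dkc1, the pseudouridine synthase dyskerin, had 9.72 and 9.75 in 4F cells, against 8.09 and 8.01 in GFP cells, a difference of 1.69 ± 0.10 (SE, limma adjusted p = 1.4e-07). Polr1b, a core subunit of RNA polymerase I (9.28 and 8.92 in 4F, 7.88 and 7.64 in GFP), Fbl, the methyltransferase fibrillarin (10.15 and 9.69 in 4F, 8.79 and 8.30 in GFP), and Wdr43, an assembly factor of the small subunit (10.20 and 10.01 in 4F, 8.85 and 8.81 in GFP), differed by 1.34 ± 0.13 (SE, limma adjusted p = 6.1e-06), 1.37 ± 0.17 (SE, limma adjusted p = 3e-05) and 1.27 ± 0.14 (SE, limma adjusted p = 1.2e-05). In these genes the gap between the arms was wider than the gap between the replicates of either arm. They were picked as the largest called differences of the list, which by itself favours such a gap. The E-box CACGTG is the site that MYC with its partner MAX prefers. It was in 7 of 29 promoters of the nucleolus list (24.1%), against 1309 of 15614 of all genes (8.38%), and in 10.2% of the genes called higher and 10.3% of those called lower. The promoter of Wdr43 is shown as one that holds it (GRCm38.p6, chr17:71615965-71616264, plus strand), with the motif, just past the gene start, in capitals:
Wdr43: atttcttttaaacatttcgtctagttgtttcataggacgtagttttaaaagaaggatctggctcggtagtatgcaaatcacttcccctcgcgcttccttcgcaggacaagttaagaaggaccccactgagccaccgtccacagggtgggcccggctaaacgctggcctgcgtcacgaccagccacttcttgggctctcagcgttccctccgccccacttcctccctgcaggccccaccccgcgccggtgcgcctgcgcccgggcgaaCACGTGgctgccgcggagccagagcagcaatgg

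Enzymes that make nucleotides and one-carbon units were higher in 15 of 25 and lower in 0, with a median of 0.67. Ppat, the first enzyme of purine synthesis, had 10.20 and 10.17 in 4F cells, against 8.07 and 7.71 in GFP cells, a difference of 2.29 ± 0.15 (SE, limma adjusted p = 2.7e-07). Shmt1, the cytosolic serine hydroxymethyltransferase (8.53 and 8.01 in 4F, 6.48 and 6.38 in GFP), differed by 1.84 ± 0.15 (SE, limma adjusted p = 1e-06). Pfas, a later enzyme of the purine route (1.46), and Prps1, which makes its starting sugar phosphate (1.44), were higher as well. The MYC network itself was near the background of 28.2%, with 3 of 12 higher and 1 lower. Mxi1, an antagonist of MYC that pairs with MAX, was higher (7.79 and 7.52 in 4F, 6.73 and 6.55 in GFP), at 1.01 ± 0.11 (SE, limma adjusted p = 1.3e-05). The calls of Mycl (0.35), Mxd3 (0.34) and Mxd4 (-0.48) were each lost when an array was left out (without 4F replicate 1, 4F replicate 2 or GFP replicate 1 for Mycl, without 4F replicate 1, 4F replicate 2 or GFP replicate 2 for Mxd3, without 4F replicate 1 or GFP replicate 1 for Mxd4).

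Genes of DNA methylation and chromatin were higher in 19 of 28 and lower in 0, with a median of 0.58. Hells, a remodeller needed for DNA methylation, had 9.47 and 9.41 in 4F cells, against 7.92 and 7.69 in GFP cells, a difference of 1.64 ± 0.23 (SE, limma adjusted p = 8.9e-05). Uhrf1, which brings the maintenance methyltransferase to new DNA (9.51 and 9.35 in 4F, 8.24 and 7.55 in GFP), Chaf1b, a subunit of the chromatin assembly factor (8.88 and 8.48 in 4F, 7.57 and 7.11 in GFP), and Jarid2, a partner of Polycomb complex PRC2 (9.32 and 8.81 in 4F, 7.66 and 7.24 in GFP), differed by 1.53, 1.34 and 1.62. Hells, Uhrf1 and Chaf1b also act at the replication fork. The replication list was higher in 4F too, and a link between the lists was not tested. Subunits of the respiratory chain were higher in 15 of 29 (9 without 4F replicate 1) and lower in 0, by a small median of 0.34. Cox5a, of cytochrome oxidase, had 10.27 and 9.63 in 4F cells, against 9.01 and 8.84 in GFP cells, a difference of 1.03 ± 0.17 (SE, limma adjusted p = 0.00031). Cyc1 and Uqcrfs1, of the cytochrome bc1 complex, and Cycs, cytochrome c, differed by 0.95, 0.84 and 0.93, and 1 of the 3 rows of Cycs was not called.

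Other metabolic lists were mixed. Glycolysis had 4 of 20 higher and 4 lower, with a median of 0.15. Aldoc, an aldolase, had 8.07 and 8.5 in 4F cells, against 6.29 and 6.03 in GFP cells, a difference of 2.13 ± 0.48 (SE, limma adjusted p = 0.0034). Hk2, a hexokinase (1.17), and Slc2a3, a glucose transporter (1.16), were higher and Eno2, an enolase (-1.0), lower. With 4F replicate 1 left out, 1 glycolysis gene was called higher and 1 lower, with GFP replicate 2 left out 1 was called higher, and with 4F replicate 2 or GFP replicate 1 left out 2 and 1 were called lower. Genes of the ATF4 stress response and amino acid transport were lower in 10 of 19 and higher in 1, with a median of -0.70. Trib3, a pseudokinase induced by ATF4, had 6.04 and 6.30 in 4F cells, against 8.14 and 8.80 in GFP cells, a difference of -2.30 ± 0.47 (SE, limma adjusted p = 0.0018). Ddit3, the stress factor CHOP (6.33 and 6.41 in 4F, 7.62 and 8.05 in GFP), and Atf5 (7.59 and 7.75 in 4F, 8.63 and 9.37 in GFP) differed by -1.47 and -1.33. Slc1a5, a glutamine transporter, was called higher (0.82 ± 0.16 SE, limma adjusted p = 0.0014), and Slc7a11, the cystine transporter (-1.47), was not called without 4F replicate 1 or GFP replicate 2. The count of 10 was 6 without either 4F array and 4 without GFP replicate 2.

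Iron handling was lower in 11 of 15 (7 without 4F replicate 1) and higher in 1, with a median of -0.66. The member called higher was Tfrc, the transferrin receptor that takes up iron, at 9.81 and 8.93 in 4F cells, against 7.19 and 6.93 in GFP cells, a difference of 2.31 ± 0.34 (SE, limma adjusted p = 0.00013). Steap2 (6.64 and 6.62 in 4F, 8.94 and 8.96 in GFP) and Steap1 (5.75 and 5.85 in 4F, 7.52 and 7.62 in GFP), members of a family of metalloreductases, and Cp, the ferroxidase ceruloplasmin (5.17 and 5.08 in 4F, 7.01 and 6.13 in GFP), differed by -2.32, -1.77 and -1.44. A second row of Steap2, with signals near 5 in all 4 arrays, was not called. Cholesterol and fatty acid synthesis had 4 of 24 higher, near the 14.2% of all genes called higher. All 4 differed by less than 1 on the log2 scale: Elovl6 (0.71), Fdft1 (0.69), Scd1 (0.68) and Stard4 (0.61). Hsd17b7 (-0.51) was the member called lower, and the count called higher was 0 without 4F replicate 1, 2 without 4F replicate 2 and 1 without GFP replicate 2.

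Epithelial genes were called in part. Of the junction and surface genes, 8 of 29 were higher (5 without 4F replicate 2 or without GFP replicate 1) and 1 lower, with a median of 0.11. Dsp, the desmosomal plaque protein desmoplakin, had 7.64 and 7.37 in 4F cells, against 5.61 and 5.62 in GFP cells, a difference of 1.90 ± 0.20 (SE, limma adjusted p = 7.7e-06). Perp, a desmosomal membrane protein (8.49 and 9.0 in 4F, 6.51 and 7.26 in GFP), and Cxadr, a protein of tight junctions (7.73 and 7.99 in 4F, 6.72 and 6.59 in GFP), differed by 1.86 ± 0.23 (SE, limma adjusted p = 3.4e-05) and 1.21 ± 0.20 (SE, limma adjusted p = 0.0003). Cdh1, E-cadherin, the main adhesion protein of epithelia, was not called, at 6.09 and 6.78 in 4F cells, against 5.70 and 5.81 in GFP cells, a difference of 0.68 ± 0.34 (SE, limma adjusted p = 0.17). Spint2, a serine protease inhibitor of epithelia, was called higher (1.17), but not without 4F replicate 2, GFP replicate 1 or GFP replicate 2. Ddr1, a collagen receptor, was lower (-0.69 ± 0.13 SE, limma adjusted p = 0.0011). Keratins and epithelial regulators had 6 of 19 higher and 1 lower. The count of 6 fell to 2 without 4F replicate 2 or without GFP replicate 1, and to 3 without GFP replicate 2. Elf3, an epithelial ETS factor (6.35 and 6.72 in 4F, 5.75 and 5.48 in GFP), differed by 0.92 ± 0.17 (SE, limma adjusted p = 0.00092). Cdh3, P-cadherin, was the member called lower, at 5.84 and 6.00 in 4F cells, against 7.75 and 8.44 in GFP cells, a difference of -2.18 ± 0.26 (SE, limma adjusted p = 2.3e-05).

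Some early pluripotency genes were above GFP on day 5, while Nanog was not called. Of 16 early genes, 6 were higher and 0 lower, with a median of 0.45. Gdf3, a growth factor of stem cells, had 7.70 and 8.34 in 4F cells, against 5.28 and 5.33 in GFP cells, a difference of 2.71 ± 0.18 (SE, limma adjusted p = 2.7e-07). L1td1, an RNA-binding protein of pluripotent cells (7.86 and 8.12 in 4F, 5.67 and 5.97 in GFP), and Fbxo15, a classic Oct4 and Sox2 target (6.28 and 6.57 in 4F, 4.80 and 4.77 in GFP), differed by 2.17 ± 0.27 (SE, limma adjusted p = 3e-05) and 1.64 ± 0.17 (SE, limma adjusted p = 9.4e-06). Upp1, a uridine phosphorylase that is also high in stem cells, had 6.73 and 7.68 in 4F cells, against 5.58 and 5.64 in GFP cells, a difference of 1.59 ± 0.33 (SE, limma adjusted p = 0.0019). For these 4 genes every 4F array was above every GFP array, and 4F averaged 2.51, 2.39, 1.68 and 1.14 above day 0. Of 19 late genes, 2 were higher and 1 lower, below the shares of all genes (14.2% higher and 14.0% lower). Nanog, the core factor that marks the finished state, was not called, at 6.22 and 6.60 in 4F cells, against 5.93 and 5.93 in GFP cells, a difference of 0.48 ± 0.29 (SE, limma adjusted p = 0.27). Mybl2, which also drives the cell cycle, was higher (1.58 ± 0.17 SE, limma adjusted p = 1.3e-05), Sall1, a zinc finger factor, was called higher (0.47) but not without GFP replicate 2, and Tbx3 was lower (-0.47 ± 0.10 SE, limma adjusted p = 0.003).

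Neural genes were higher in 7 of 24 and lower in 1, with a median of 0.23. Beside Bex1 and Elavl2, Stmn2, a microtubule regulator of neurons, had 10.34 and 9.91 in 4F cells, against 6.39 and 8.00 in GFP cells, a difference of 2.93 ± 0.60 (SE, limma adjusted p = 0.0018). Syt1, the calcium sensor of synaptic vesicles (6.96 and 7.13 in 4F, 5.72 and 5.55 in GFP), differed by 1.41 ± 0.17 (SE, limma adjusted p = 2.6e-05). Map2, a microtubule protein of dendrites (6.93 and 6.48 in 4F, 7.28 and 8.26 in GFP), was called lower, but not without 4F replicate 2 or GFP replicate 2. Of the Hox genes, which keep the positional identity of fibroblasts, 3 of 23 were lower and 0 higher: Hoxb9 (-1.04 ± 0.13 SE, limma adjusted p = 3.1e-05), Hoxc8 (-1.03 ± 0.25 SE, limma adjusted p = 0.0053, not called without 4F replicate 2 or GFP replicate 1) and Hoxc10 (-0.65 ± 0.13 SE, limma adjusted p = 0.0015). This count is near the background of genes called lower. Of 15 AP-1 and immediate early genes, 1 was called: Fosl2, with 7.45 and 7.13 in 4F cells, against 8.73 and 8.97 in GFP cells, a difference of -1.56 ± 0.21 (SE, limma adjusted p = 5.8e-05). The AP-1 site, searched as TGANTCA, was in 3.83% of the promoters of genes called higher, 5.8% of those called lower and 6.98% of all genes.

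**Figure D3:**
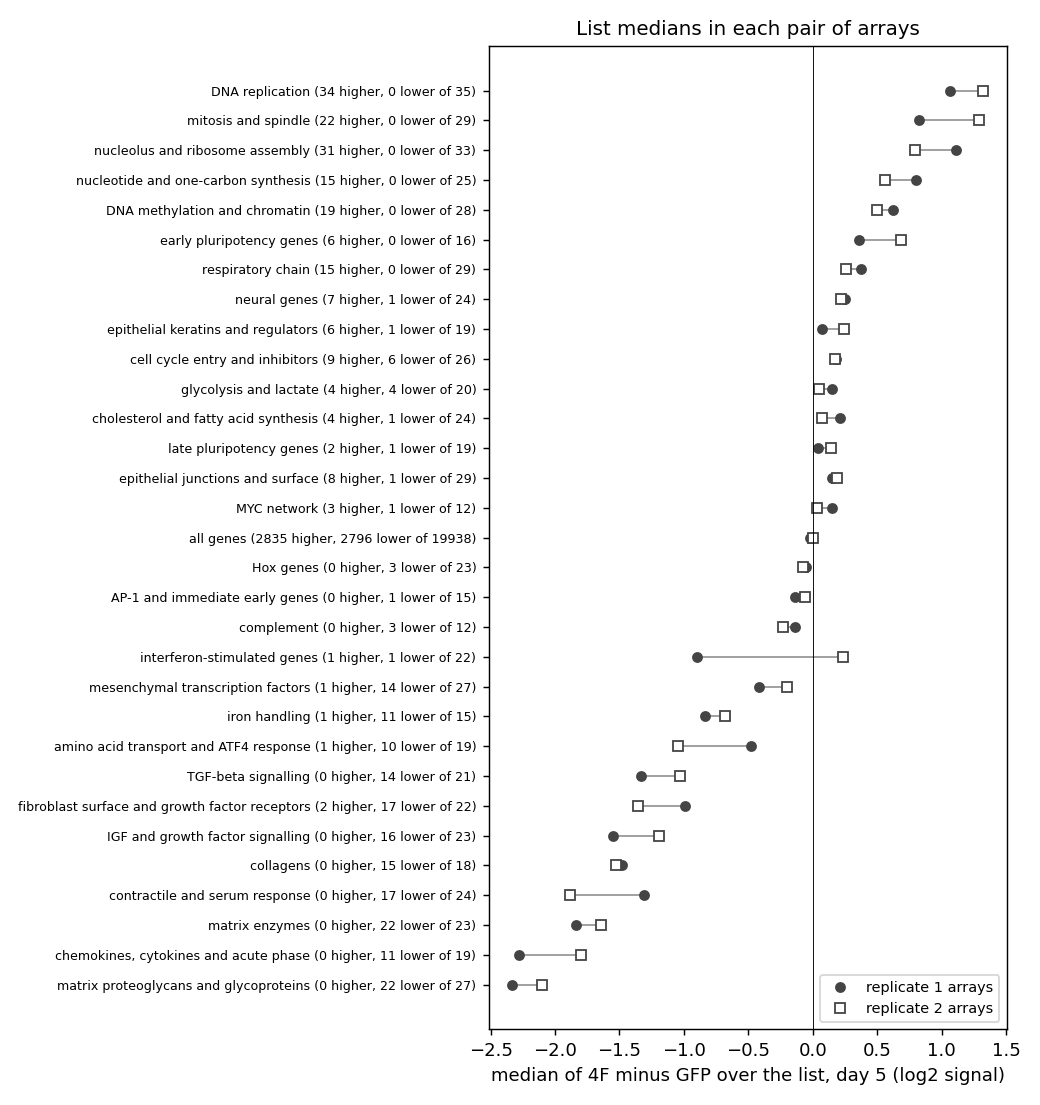
Median difference of 4F minus GFP on day 5 in log2 signal (x axis) for each gene list (y axis), in the replicate 1 arrays (filled circles) and the replicate 2 arrays (open squares), with the counts of genes called higher and lower. The replication, mitosis and nucleolus lists lie right of 0.5 and the matrix lists left of -1 in both pairs, and the interferon list lies on opposite sides of 0.

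Levels in uninfected cells place these differences. The contrasts with day 0 share arrays with the contrast of 4F with GFP, so they are given side by side as values with no test between them. For the nucleolus list the median was 0.06 in 4F and -0.89 in GFP, each against day 0. For replication it was 0.30 in 4F and -0.81 in GFP, and for mitosis 0.28 in 4F and -0.77 in GFP. Of the 35 replication genes, 8 were called higher than day 0 in 4F and 33 lower than day 0 in GFP. Of the 29 mitosis genes, 2 were called higher than day 0 in 4F and 10 lower in GFP. Over all 19938 genes, 1945 were called higher and 1951 lower than day 0 in 4F, and 1810 higher and 1628 lower in GFP. In these growth lists, 4F cells stood near or somewhat above the starting fibroblasts, and GFP cells stood below them. The matrix proteoglycans had medians of -0.60 in 4F and 1.20 in GFP, and collagens -0.61 in 4F and 0.87 in GFP. Chemokines had -0.60 in 4F and 1.44 in GFP. In these lists the medians of the arms lay on opposite sides of day 0. Against day 0, 5 of the 27 proteoglycans were called higher and 13 lower in 4F, and 18 higher and 0 lower in GFP. Collagens had 0 of 18 higher and 10 lower in 4F, and 12 higher and 0 lower in GFP. Chemokines had 2 of 19 higher and 7 lower in 4F, and 9 higher and 1 lower in GFP. The contractile list was another kind: it stood at -2.05 in 4F and -0.54 in GFP, both below day 0. TGF-beta genes stood at -1.08 in 4F and 0.00 in GFP, and fibroblast surface genes at -1.17 in 4F and 0.05 in GFP. In GFP against day 0, 3 of the 21 TGF-beta genes were called higher and 5 lower, and 9 of the 22 surface genes higher and 4 lower. Over all genes called higher, day 0 lay between the arms in 71.8% of 2835, and over those called lower in 64.7% of 2796. These genes were selected for a gap between the arms, which by itself makes a value between them likelier. The share among genes not called was not taken. The 4F mean was the one further from day 0 in 54.7% of the genes called higher and 52.0% of those called lower.

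**Figure D4:**
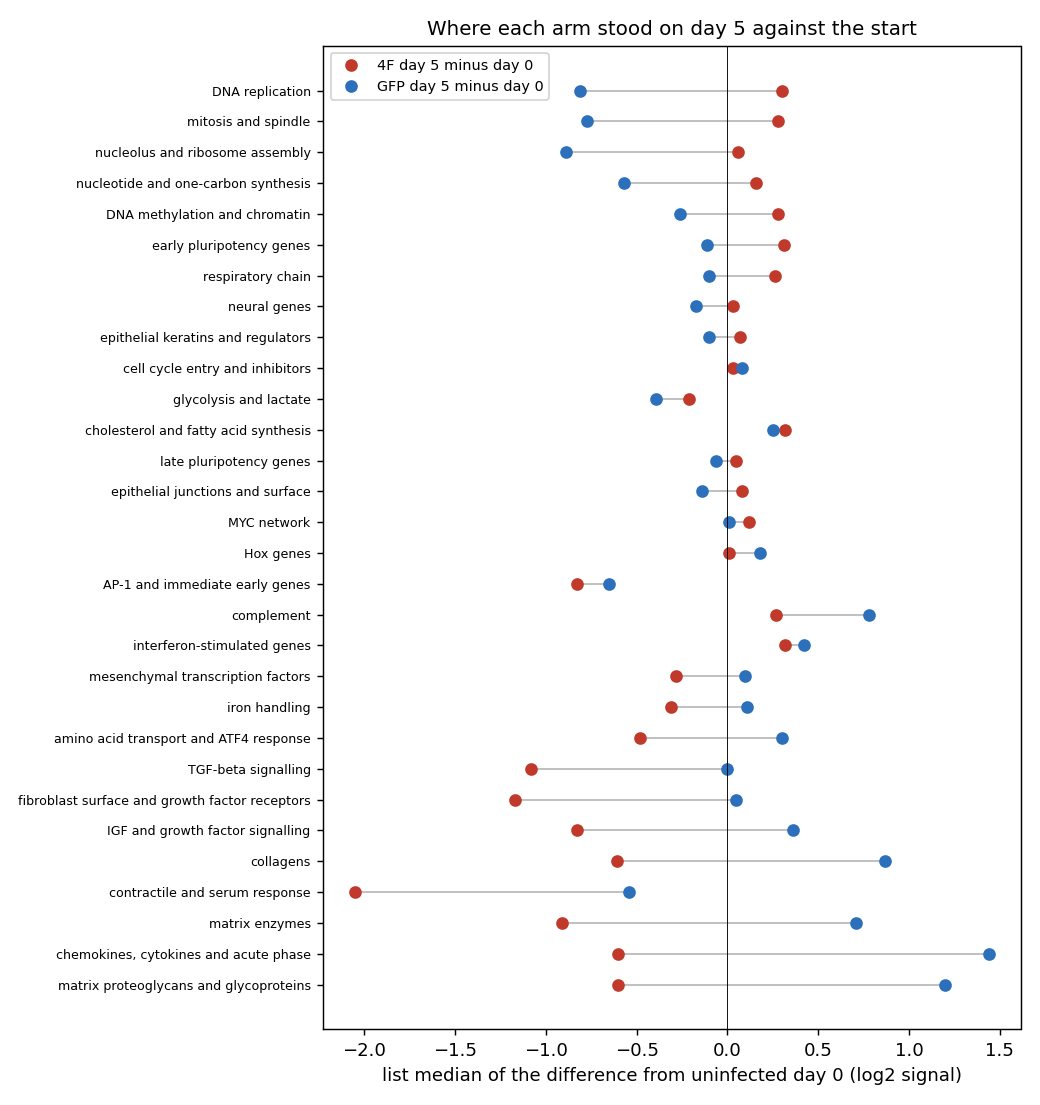
List medians (y axis) of the day 5 difference from uninfected day 0 in log2 signal (x axis), for 4F (red) and GFP (blue), joined by a line. The 4F point lies near 0 and the GFP point below 0 for replication, mitosis and the nucleolus, and the points lie on opposite sides of 0 for collagens, proteoglycans and chemokines.

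The single 3F array of day 5, without c-Myc, gives values with no test. Against the GFP mean, the nucleolus list had a median of 0.93 in 4F and 0.02 in 3F, and the nucleotide list 0.67 in 4F and -0.06 in 3F. Dkc1 stood at 9.72 and 9.75 in 4F and 8.25 in 3F, and Shmt1 at 8.53 and 8.01 in 4F and 6.53 in 3F, the 3F values lying within 0.3 of the nearer GFP array. Replication had 1.24 in 4F and 0.55 in 3F, and mitosis 1.07 in 4F and 0.66 in 3F. The matrix proteoglycans had -2.27 in 4F and -0.78 in 3F, and the contractile list -1.59 in 4F and -0.29 in 3F. Several of the top genes were at least as high in 3F as in 4F: Akr1c18 was 12.58, Sostdc1 11.95, Dpp4 10.43 and Sbspon 11.32 in 3F, above both 4F arrays. Tmem229b, Penk, Nt5e and St3gal6 were also above both 4F arrays in 3F, and Hbb-y lay between them. Bex1, at 6.55 in 3F, and Fmo1, at 8.28, were below both 4F arrays. So were Necab1 (9.28), Elavl2 (8.71), Kcnip4 (8.0) and Foxd1 (8.91) in 3F. Of the genes called higher in 4F, the 3F value was nearer to the 4F mean than to the GFP mean in 44.3%, and beyond the GFP mean in 16.6%. Of those called lower, it was nearer to 4F in 43.6% and beyond GFP in 447 of 2796 genes.

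Day 5 was then set against the days around it by testing whether the difference of 4F minus GFP changed. Between days 3 and 5 few changes passed: 4 rows of 21789 (0.0184%), for 3 genes of 19938 (0.0150%). At an unadjusted p under 0.05 there were 3021 rows. The adjusted count was 0 without either 4F array of day 5, 4 without GFP replicate 1 and 14 without GFP replicate 2. Slc38a5, an amino acid transporter, had a difference of 0.45 on day 3 and 2.18 on day 5. H4f16, a histone H4 gene, had 0.38 on day 3 and 1.24 on day 5, and Myof, the membrane repair protein myoferlin, 0.03 on day 3 and -1.31 on day 5. Neighbouring histone H4 genes are close copies, so the H4f16 value may hold signal of others. List medians on days 1, 3, 5 and 8 were -0.38, -1.71, -2.27 and -2.81 for the matrix proteoglycans. They were 0.60, 0.52, 1.24 and 1.51 for replication, and 0.77, 0.46, 0.93 and 1.28 for the nucleolus. The nucleolus and replication lists thus stood above GFP from day 1, and the median of the matrix proteoglycans lay further below 0 on each later day. For the proteoglycan genes one by one, the change of the difference passed in 0 of 27 from day 3 to day 5 and in 1 from day 5 to day 8, Nid2, the basement membrane protein nidogen-2. Early pluripotency genes had -0.04, -0.04, 0.45 and 1.09, and epithelial junction genes -0.03, 0.03, 0.11 and 0.61. The medians carry no test.

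Between days 5 and 8 the difference changed in 126 rows (0.578%), for 111 genes (0.557%), 68 upward and 43 downward. Without 1 of the day 5 arrays, 27 to 85 rows passed, the fewest without 4F replicate 2. Of the 20 glycolysis genes, 10 changed upward (7 to 9 with a day 5 array left out), beside 68 of all 19938 genes. Slc16a3, the lactate exporter, had a difference of 0.33 on day 5 and 3.60 on day 8. Pfkl, a phosphofructokinase, had 0.24 on day 5 and 1.84 on day 8, Aldoa, an aldolase, -0.41 on day 5 and 0.92 on day 8, and Pdk1, which diverts pyruvate from the mitochondria, 0.35 on day 5 and 2.00 on day 8. The glycolysis median was -0.10, 0.07, 0.15 and 0.97 on days 1, 3, 5 and 8, so on day 5 the list still stood close to GFP. Bnip3, a mitochondrial protein that low oxygen induces, had -0.34 on day 5 and 2.58 on day 8, and Ndufa4l2, another gene that low oxygen induces, -0.01 on day 5 and 2.65 on day 8. Shmt2, the mitochondrial serine hydroxymethyltransferase, had 0.30 on day 5 and 1.91 on day 8, a change that did not pass without either replicate 2 array or without the replicate block. Downward, Serpina3n, an acute phase protease inhibitor, had -2.56 on day 5 and -5.85 on day 8, and Il33, a cytokine, -0.78 on day 5 and -3.58 on day 8. For the ATF4 list the median was -0.31, -0.47, -0.70 and 0.27 on days 1, 3, 5 and 8, with Sesn2, a stress-induced regulator of mTORC1, at -0.69 on day 5 and 1.09 on day 8, a change that did not pass without any 1 of the 4 day 5 arrays or without the replicate block.

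**Figure D5:**
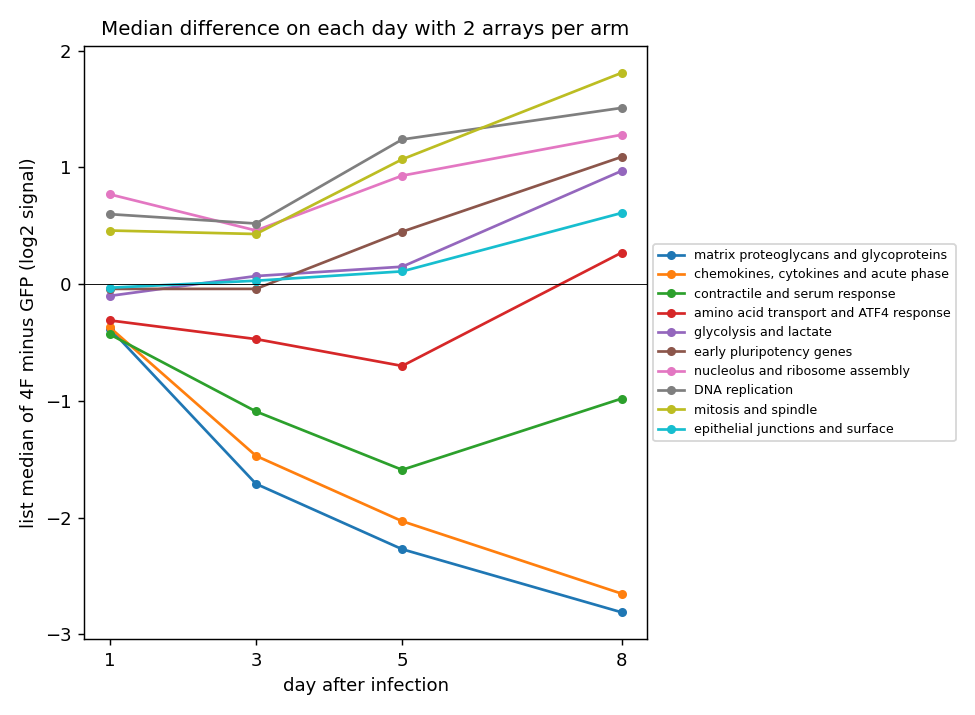
List medians of the difference of 4F minus GFP in log2 signal (y axis) on days 1, 3, 5 and 8 (x axis), each from 2 arrays per arm. The matrix and chemokine lines go down throughout, the glycolysis and ATF4 lines climb after day 5, and the replication, mitosis and nucleolus lines are above 0 on every day.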

How the data were processed

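Per the labels' protocols, total RNA was labelled for single-colour Affymetrix whole-transcript arrays of the mouse. The authors deposited log2 values, 1 column per array, between 4.27 and 14.33. How these were normalized is not given here by any label or file header, and they were used as deposited. The sample titles and the replicate numbers gave groups and pairs.

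A model with 1 mean per group and the replicate number as a block was fitted with limma 3.58.1 in R 4.3.3 to the 24 numbered arrays, which form 12 groups of 2 (11 residual degrees of freedom, 3.16 prior). All 21789 rows with 1 symbol were tested, and p-values were adjusted by Benjamini-Hochberg over them. A gene with an adjusted p under 0.05 was called. The labels tie replicate 1 to a labelling amount of its own, and the replicate differences of the groups correlated across rows in the same way: r was 0.0849 to 0.675 in 66 pairs of groups (median 0.321), 65 over 0.1, and 0.232 for the 2 arms of day 5. In simulated data with 50 rows changed at each size among 21789, the fit of this contrast recovered 52% at 0.5, 94% at 1 and 100% at 2 and 4 on the log2 scale, with 7 false calls. The median residual SD was 0.12, and the small number of arrays limits the precision. Symbols came from the platform's annotation, and 21698 rows had an Entrez ID in the reference. Rows with several symbols (1621) or none (5443) were left out. Close paralogs can share probe signal, which was not examined.

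The comparison and the gene lists were chosen with earlier results of these data known. The rule for named genes took the delivered factors, the 15 largest called differences each way, up to 4 of the largest called members of each list with the largest of the opposite sign, namesakes of a list, and the 5 largest called changes each way between days. Fn1, Pdgfrb and single markers of other cell types come from the marker lists. The members given in the day 5 to day 8 comparison and the 3 genes whose promoters are printed were chosen after their values were seen. Promoter sequences are RefSeq's (GRCm38.p6, 250 bases before to 50 after the gene start, the first entry for the 4163 genes with several) and were found for 15614 genes. The alternatives tried are named with their counts in the closing section.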

Additional observations from a re-analysis of the deposited data

Results flagged for a closer look

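The difference of 4F minus GFP on day 5 differed from that on another day, by the test of that difference in the limma fit, for these genes. From day 3 to day 5, Slc38a5 changed by 1.73 (limma adjusted p = 0.036), H4f16 by 0.86 (0.025) and Myof by -1.34 (0.035), and each of these calls was lost without either 4F array of day 5, that of Slc38a5 also without GFP replicate 2 and that of Myof without GFP replicate 1. From day 5 to day 8, the upward changes were 3.27 in Slc16a3 (limma adjusted p = 0.00019), 2.93 in Bnip3 (4.7e-05), 2.65 in Ndufa4l2 (0.0034), 2.54 in Trh, the thyrotropin-releasing hormone gene (0.0068), and 2.31 in Slc2a3 (0.035). The downward changes were -3.29 in Serpina3n (limma adjusted p = 0.036), -2.79 in Il33 (0.013), -2.26 in Kera, the proteoglycan keratocan (0.00054), -2.10 in Lgr5, a receptor for R-spondins (0.024), and -1.71 in Efemp1, a fibulin (0.035). In Slc2a3 and Efemp1 the call was lost without any 1 of the 4 day 5 arrays, and in Serpina3n without either 4F array or GFP replicate 2. In Trh it was lost without 4F replicate 2, in Il33 without either replicate 2 array, and in Lgr5 without 4F replicate 2 or GFP replicate 1. The calls of Slc16a3, Bnip3, Ndufa4l2 and Kera held under each of those 4 omissions.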

How the results depend on the processing

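For 4F against GFP on day 5, 6269 rows were called, and 4677 in the fit without the replicate block, a subset of them (4263 against 5631 genes). Day 5 alone, quantile normalization, median centring, a minimum mean signal, 1 row per gene and a prior variance that follows the mean gave 5613 to 6438, and the limit of 1 on the difference 1570 rows and 1421 genes. With 1 day 5 array left out, 4174 to 4939 rows and 3804 to 4507 genes were called. For the change from day 3 to day 5, the 4 rows became 0 without the block, 14 with quantile normalization, 47 of 12526 rows at a mean signal of at least 6, 49 with 1 row per gene, and 0 to 14 with an array left out. For day 5 to day 8, the 126 rows became 39 without the block, 71 with the limit on the difference, and 27 to 85 with an array left out. Counts of 5 or more list members called on day 5 that moved by over 1.5 times when an array was left out stand in the text beside them. With the limit of 1 on the difference, members called higher became 13 against 31 for the nucleolus, 6 against 15 for nucleotide synthesis, and 1 against 15 for the respiratory chain. Those called higher became 6 against 19 for chromatin, 3 against 9 for cell cycle entry, 5 against 8 for epithelial junctions, 0 against 6 for keratins and 0 against 4 for cholesterol. Those called lower became 7 against 14 for mesenchymal factors, 6 against 11 for iron, 6 against 10 for the ATF4 list and 1 against 4 for glycolysis. Day 5 alone gave 5 interferon genes lower against 1, 7 cholesterol genes higher against 4, 1 gene of the MYC network higher against 3 (also 1 without the block), and Klf4 and Myc lower, against neither. Other lists that moved had fewer than 5 members called in the direction concerned under any setting, but for Hox genes, 5 lower against 3 at a mean signal of at least 6. Leaving out an array leaves 1 array in an arm, which is assumed to vary like the other groups. No called value named in the text changed sign in any of these fits. Without the block, 17 of the 181 named values lost their call: on day 5 Sox2, C1s1, Map2, Mycl, Mxd3, Fdft1, Hsd17b7, Krtdap, Kera and Efemp1, from day 3 Slc38a5, H4f16 and Myof, and to day 8 Slc2a3, Serpina3n, Lgr5 and Efemp1. The block changed no other call of these 181. To day 8, upward changes without it numbered 6 against 10 for glycolysis, 0 against 4 for nucleotide synthesis (Shmt2 among them) and 0 against 2 for the ATF4 list (Sesn2). Of the changes of 0.5 on the log2 scale, the simulated fit recovered 52%. That fit held 200 changed rows, far fewer than were called in the data, and the adjustment of p depends on how many rows change. The share therefore does not carry over to these data. Of the rows called here, 1044 higher and 852 lower differed by under 0.5.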
